A study of Drosophila melanogaster with 2 samples.

Results

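MicroRNA genes of Drosophila melanogaster were examined for nearby binding of NFAT, the fly member of the NFAT family of Rel-domain transcription factors. The genes were taken by name (mir-) from the Ensembl annotation, which gave 260 hairpin genes on the chromosome arms of 262 in all. Hairpins within 2000 bp of each other were joined, giving 206 loci: 180 single hairpins and 26 clusters of up to 8. A locus counted as having a peak where a peak's summit, its highest point, lay within 2000 bp of it. This held for 29 of the 206 loci (14.1%), with 43 summits between them out of 4899 on the arms (0.878%).

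The peaks come from ChIP-seq, the sequencing of immunoprecipitated chromatin, on whole embryos aged 0 to 24 h. The transgenic strain, NFAT-GFP, carried an insertion that makes NFAT fused to enhanced green fluorescent protein (NFAT-eGFP), and an anti-GFP antibody was used for the precipitation. The 2 samples, biological replicates 1 and 2, form a single group with no other genotype, treatment or stage, and no control precipitation was analysed here. All cell types and embryonic stages were pooled, so a site bound strongly in few cells and a site bound weakly in many cannot be told apart.

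MicroRNAs are short RNAs that guide an Argonaute protein to messenger RNAs, chiefly through base pairing of the seed near their 5′ end, and so lower the output of their targets. They are cut from a hairpin that is part of a longer primary transcript. An intronic hairpin is usually carried by the transcript of its host gene and uses that gene's promoter. An intergenic hairpin has a primary transcript of its own, often annotated as a long non-coding RNA (lncRNA), whose start can lie far from the hairpin. In fly embryos microRNAs act in growth, cell death, the nervous system and the clearance of maternal RNA.

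The mature microRNAs below come from 7 of the 9 well-studied loci with a summit, printed so that seeds can be compared. Those of mir-8 and mir-14 are not shown. They run 5′ to 3′, the seed (bases 2 to 8) is in capitals, and they were read from the RefSeq Release 6 genome at the arm that the annotation lists first.
mir-279: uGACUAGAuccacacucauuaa
mir-996: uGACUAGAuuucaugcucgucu
mir-92a: cAUUGCACuugucccggccuau
mir-92b: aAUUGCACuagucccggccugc
mir-275: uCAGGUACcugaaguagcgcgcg
mir-305: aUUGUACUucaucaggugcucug
mir-282: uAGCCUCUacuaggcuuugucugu
mir-277: uAAAUGCAcuaucugguacgaca
mir-34: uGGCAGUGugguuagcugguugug
bantam: uGAGAUCAuuuugaaagcugauu
The products of mir-279 and mir-996, neighbours in one locus, had the same seed, GACUAGA, which 3 hairpins carry in the annotation. The products of mir-92a and mir-92b, which lie in separate loci at the gene jigr1, shared the seed AUUGCAC, carried by 6 hairpins. The other 6 printed seeds were each unlike the rest.

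The DNA under selected summits is printed next, on the plus strand of dm6, as the summit base with 50 bp on either side. The windows show the strongest summit of all, the strongest one in an intron, the one inside a cluster, one at bantam and 2 at promoters. Capitals mark matches, on either strand, to 5 short motifs. The first is GGAAA, the core known for NFAT proteins. TATCGATA is the DNA replication-related element (DRE) of fly promoters, and CGATA is the shorter word inside it. GAGAG is the word read by GAGA-type factors, and the remaining one is CACTG.
mir-279/mir-996 (chr3R:29214396-29214496, signal 790): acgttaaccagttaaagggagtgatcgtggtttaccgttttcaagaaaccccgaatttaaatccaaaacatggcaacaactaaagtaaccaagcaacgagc
mir-9377 (chrX:12665542-12665642, signal 308): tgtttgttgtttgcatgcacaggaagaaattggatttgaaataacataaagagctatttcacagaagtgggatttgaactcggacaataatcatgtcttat
mir-277/mir-34 (chr3R:10100638-10100738, signal 97.9): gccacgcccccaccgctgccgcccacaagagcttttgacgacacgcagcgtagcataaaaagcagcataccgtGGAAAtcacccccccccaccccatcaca
bantam (chr3L:640600-640700, signal 62.1): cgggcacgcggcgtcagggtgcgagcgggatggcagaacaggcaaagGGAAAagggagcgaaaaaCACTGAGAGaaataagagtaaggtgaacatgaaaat
mir-4957 (chrX:15319398-15319498, signal 131): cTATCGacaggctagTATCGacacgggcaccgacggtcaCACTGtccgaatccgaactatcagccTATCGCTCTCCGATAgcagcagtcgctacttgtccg
mir-9380 (chr3R:8349732-8349832, signal 93.6): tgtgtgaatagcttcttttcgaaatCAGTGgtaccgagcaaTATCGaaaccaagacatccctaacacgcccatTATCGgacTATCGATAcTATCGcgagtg
The strongest window, at mir-279/mir-996, and the strongest intronic one, at mir-9377 in Tis11, held none of these words. The window inside the mir-277/mir-34 cluster held GGAAA, and the bantam window held it along with CACTG and, overlapping the latter, GAGAG. The windows at mir-4957 and mir-9380, 31 bp from the start of Top1 and 33 bp from that of Atg13, held repeated CGATA. Other promoter windows, not printed, differed in this. Those at mir-2501, mir-966 and the main summit of mir-4968 held no CGATA, and that at mir-4911 held it.

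The same words were counted under all 43 summits, beside all peaks of the list. CACTG lay in 14 windows (32.6%) against 30.0% of all 4899 peaks, CGATA in 7 (16.3%) against 20.7%, and GAGAG in 8 (18.6%) against 14.1%. DRE lay in 2 (4.65%) against 3.25%. GGAAA lay in 14 (32.6%) against 26.4%. By class of locus, GGAAA lay in 9 of 18 windows near intergenic loci and in 5 of 25 near loci inside protein-coding genes. CGATA went the other way, with 1 of 18 (5.56%) and 6 of 25 (24.0%). CACTG lay in 6 of 18 and 8 of 25, GAGAG in 3 of 18 and 5 of 25, and DRE in 0 of 18 and 2 of 25. The differences between classes were not tested. The longer core AGGTGGCGC, known from CTCF insulator sites, lay in 1 window (2.33%) against 0.959%. A word in a window is a description of the DNA and was not tested as a binding site.

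**Figure D1:**
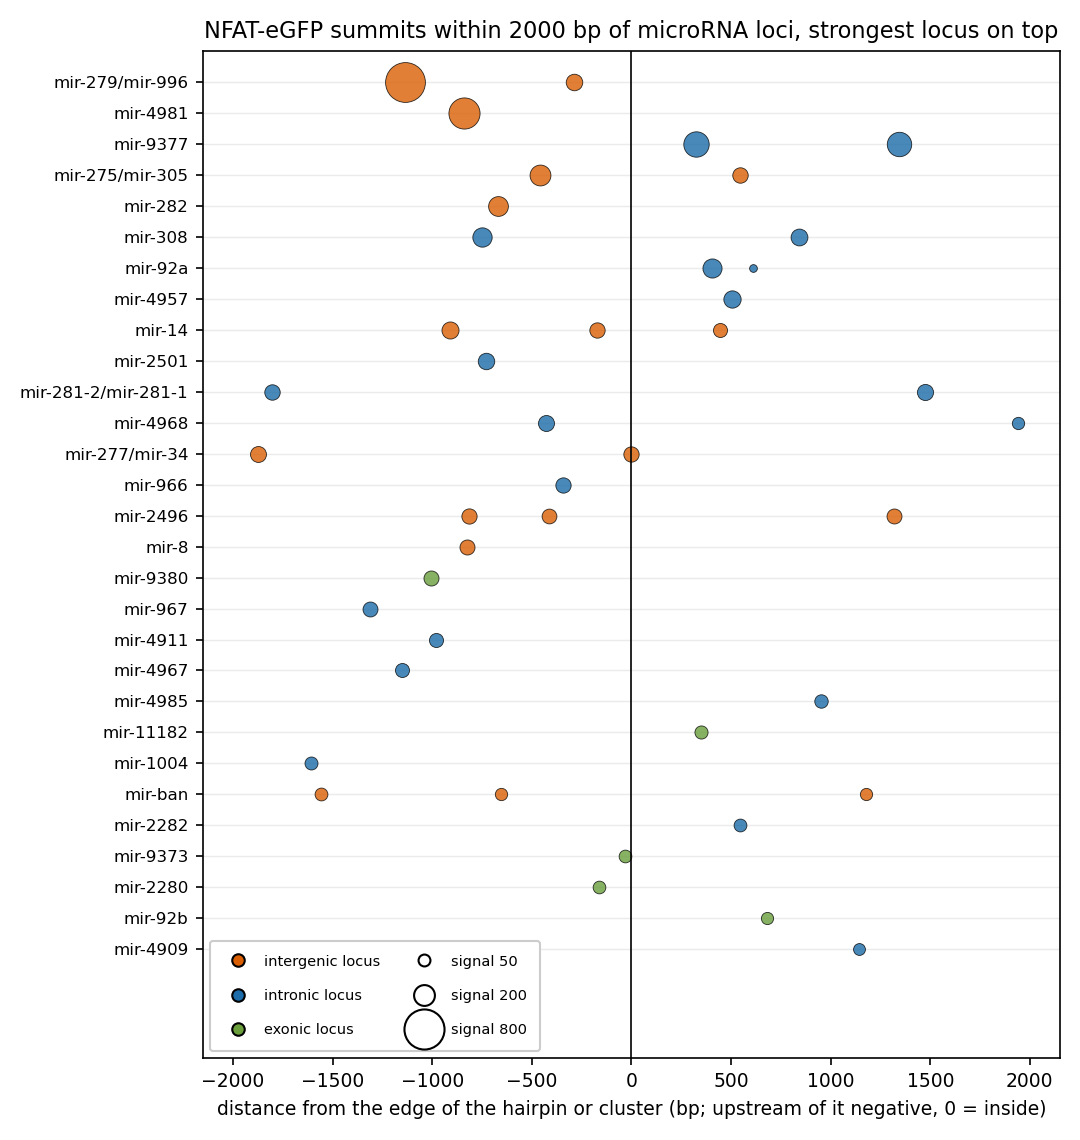
Position of each of the 43 summits (points) relative to its microRNA locus (rows, 29 loci, strongest on top). The x axis is the distance in bp from the nearest edge of the hairpin or cluster, with upstream negative, point area grows with the peak's signal in the larger thresholded list, and colour gives the class of the locus; 25 summits lie upstream, 1 inside and 17 downstream.

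Peak strength is given below as the signal that the authors' caller assigned to each peak, on a scale not stated, so that it ranks peaks within a list and has no unit. The 43 summits had a median signal of 97.1, with quartiles of 65.2 and 120, against 91.8 (68.5 and 141) for all 4899 peaks. They reached from 8.51 to 790. Of the 43, 8 were among the strongest 1224 of the list and 12 among the weakest 1225. The median distance to the locus was 749 bp, and 13 summits lay within 500 bp. No summit served more than 1 locus, 18 loci had a single summit, 8 had 2 and 3 had 3.

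The strongest peak near any microRNA lay at mir-279/mir-996. mir-279 is known for restraining the formation of carbon dioxide sensing neurons. The locus lies on 3R from 29215585 to 29217280 (dm6, plus strand), outside protein-coding genes and inside the lncRNA CR31044. Its main summit had a signal of 790, rank 32 of 4899, and lay 116 bp upstream of the annotated start of CR31044 and 1139 bp upstream of the first hairpin. In the replicates' own thresholded lists the same peak had a signal of 330 in replicate 1 and 470 in replicate 2, with ranks 34 and 33. The nearest protein-coding start, that of eEF1gamma, was 5726 bp away. A second summit, 289 bp upstream of the hairpin, had a signal of 118. It passed the threshold in replicate 2 (83.2) and appeared in replicate 1 only in the ranked list (31.5), which also holds peaks that did not pass. So the main site ranked alike in both replicates, and the inner one passed in replicate 2 alone.

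The other lncRNA-hosted loci had weaker peaks. At mir-282 (3L, 3251022 to 3251118) 1 summit of signal 178 (69.3 in replicate 1, 111 in replicate 2) lay 669 bp upstream, which is 241 bp upstream of the last of 3 annotated starts of the lncRNA CR43626. At mir-275/mir-305 (2L, 7425795 to 7426044) a summit of 201 (64.6 and 134) lay 459 bp upstream, well inside the lncRNA CR43857. A second of 100 (replicate 2, 60.3, and ranked only in replicate 1, 33.3) lay 543 bp downstream and 279 bp from the start of the protein-coding gene muc. mir-305, whose hairpin lies past the annotated end of CR43857, is known for its part in the balance of intestinal stem cells. A further summit of 124, beyond the window, lay 174 bp from the start of CR43857.

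The cluster of mir-277 and mir-34 (3R, 10100022 to 10101034) was the only locus with a summit inside it. mir-34 is known from ageing brain tissue and mir-277 from the control of branched-chain amino acid breakdown. The inner summit, between the hairpins, had a signal of 97.9, with 42.3 in replicate 1 and 53.8 in replicate 2. The other lay 1875 bp upstream with 108 (42.5 and 64.4). Both passed the threshold in both replicates, and neither was near the annotated start of the host lncRNA CR43459. The inner summit lay 6927 bp downstream of that start and the outer one 4386 bp. The protein-coding start nearest to either, that of Fmr1, was 7654 bp or more away. A further summit of 67.0, beyond the window, lay 569 bp downstream of the start of CR43459.

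mir-14, known for limiting cell death and fat storage, lies on 2R from 9553762 to 9553824, and 3 summits surrounded it. The strongest, 127, lay 8 bp from the start of the host lncRNA CR43651 and 910 bp upstream of the hairpin. It passed the threshold in replicate 1 alone (44.1), although the ranked list of replicate 2 gave it 82.4. The others had 98.1 (173 bp upstream) and 78.9 (446 bp downstream), and passed in replicate 2 alone with 80.2 and 68.6. At mir-8 (2R, 16831432 to 16831518), which is known for its effect on body size through insulin signalling, a summit of 93.8 lay 825 bp upstream and 82 bp upstream of the second of 2 starts of CR43650. It passed in replicate 2 (61.6) and not in replicate 1 (34.8 in the ranked list).

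bantam (mir-ban, 3L, 642208 to 642288), which promotes growth and represses the cell death gene hid, had 3 weak summits in the window. Their signals were 62.1, 55.5 and 54.6, all among the weakest 1225 of the list. The last alone passed the threshold in a replicate (42.1 in replicate 2), and the ranked values in replicate 1 were 23.2, 19.6 and 14.6. The primary transcript CR43334 is 15466 bp long and held 9 summits, with another of signal 113 at 477 bp upstream of its start.

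**Figure D2:**
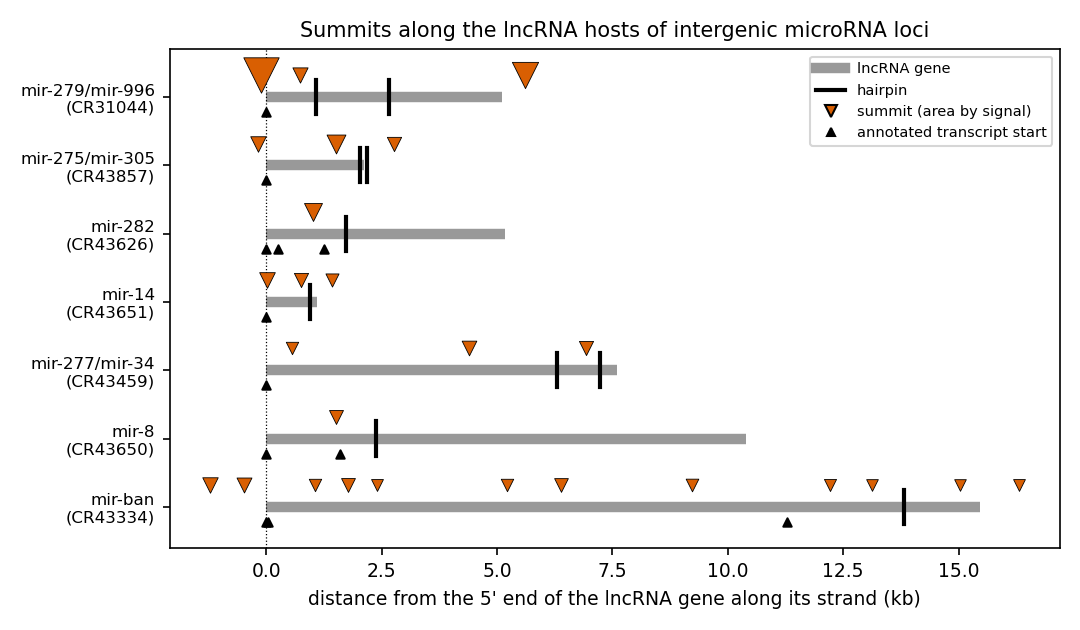
Summits of the larger thresholded list (orange, area by signal) along 7 lncRNA genes (grey bars). Each gene overlaps an intergenic microRNA locus with a summit, and hairpins (black bars) and annotated transcript starts (black triangles) are marked. The x axis is the distance in kb from the 5′ end of the lncRNA gene along its strand; at mir-279/mir-996 the peak of 790 sits 116 bp before the start, while the bantam host carries 9 weaker summits along its length.

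The 2 remaining intergenic loci had no lncRNA host in the annotation. At mir-4981 (2R, 8015249 to 8015343) a summit of 475, rank 106, lay 842 bp upstream and 652 bp from the start of CG14762, with 155 in replicate 1 and 317 in replicate 2. At mir-2496 (X, 2010300 to 2010417) 3 summits had 97.1, 92.5 and 89.9, between the genes PIG-K and east. The first lay 118 bp from the start of PIG-K, a subunit of the enzyme that attaches GPI anchors, and each passed the threshold in 1 replicate. Among intergenic loci, 7 of 29 with a lncRNA host had a summit (24.1%) and 2 of 31 without one (6.45%), a difference that was not tested.

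Among intronic loci with a summit, most had the strongest one at a promoter, where most peaks of the list also lay. Of the 15 intronic loci with a summit, 12 had the strongest one within 500 bp of a protein-coding transcription start site (TSS), and in 9 it was a TSS of the gene that holds the hairpin. Not all of these starts could give rise to the hairpin. At mir-92a and mir-4985 the start lay downstream of the hairpin, and mir-4957 lies on the strand opposite to Top1. A strongest summit within 500 bp of a protein-coding TSS was seen at 1 of 9 intergenic loci and at 3 of 5 exonic ones. Over all peaks of the list 56.2% had such a TSS at that distance, against 64.0% of the 25 summits near loci inside genes and 11.1% of the 18 near intergenic loci. Intronic loci with a summit also lay closer to a TSS (median 763 bp) than the others (median 2436 bp).

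The intronic summits with the highest signal were not at a promoter. mir-9377 (X, 12665217 to 12665268) lies in an intron of Tis11, which encodes a zinc finger protein that promotes decay of messenger RNAs. Its summits, 324 and 1345 bp downstream of the hairpin, had 308 (124 in replicate 1, 179 in replicate 2) and 283 (73.3 and 207). They lay 5058 and 6079 bp from the nearest protein-coding start, that of Tis11. Their ranks were 269 and 325 of 4899, so both were strong peaks away from a promoter.

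At mir-308 (2R, 14215802 to 14215864), in an intron of the ribosomal protein gene RpS23, the stronger summit lay 14 bp from the start of RpS23 with 169 (72.7 and 103). The other, 843 bp downstream of the hairpin, had 123 (47.6 and 81.4). At mir-92a (3R, 25646506 to 25646600), in an intron of jigr1 and known, with mir-92b, for keeping neural stem cells in their dividing state, a summit of 165 (72.5 and 96.3) lay 244 bp from an annotated jigr1 start. The weakest of the 43 summits, 8.51, lay 611 bp downstream of the hairpin, in a peak that overlaps its neighbour and the same replicate peaks. mir-92b had 1 weak summit of 54.3 that passed the threshold in neither replicate. So the pair that share a seed had unequal peaks.

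At 4 further introns the summit lay within 31 bp of a start. mir-4957, on the opposite strand within Top1, which encodes DNA topoisomerase I, had 131 (42.5 and 88.9) at 31 bp. mir-2501 in Nulp1 had 117 at 9 bp, mir-4968 in Mob2, a cofactor of NDR-family kinases, had 109 at 8 bp, and mir-966 in Pfas, a purine synthesis enzyme, had 97.7 at 9 bp. These 3 passed the threshold in replicate 2 only (73.0, 65.8 and 67.2). A second summit near mir-4968, of 55.7, passed in neither. The strongest summit near mir-281-1 and mir-281-2, in an intron of the antizyme gene Oda on 2R, was 111 (40.1 and 68.1) and lay 51 bp from the start of SmD3, a spliceosome core protein. A second of 100 lay 1806 bp upstream.

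The rest of the named loci were near the middle or low end of the list. mir-9380, in an exon of CG7352 on the opposite strand, had 93.6, and mir-967 in bun, the fly TSC22 gene, had 92.4 at 156 bp from a bun start. mir-4911, in an intron of ND-23, had 79.3 at 83 bp from the start of spn-E, a helicase of the piRNA pathway. mir-4967 in Pka-R2, a regulatory subunit of protein kinase A, had 78.6 at 12691 bp from the nearest start. The other 7 loci (mir-4985, mir-11182, mir-1004, mir-2282, mir-9373, mir-2280 and mir-4909) had a single summit each, with signals of at most 70.2, and 3 of them passed the threshold in replicate 2.

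**Figure D3:**
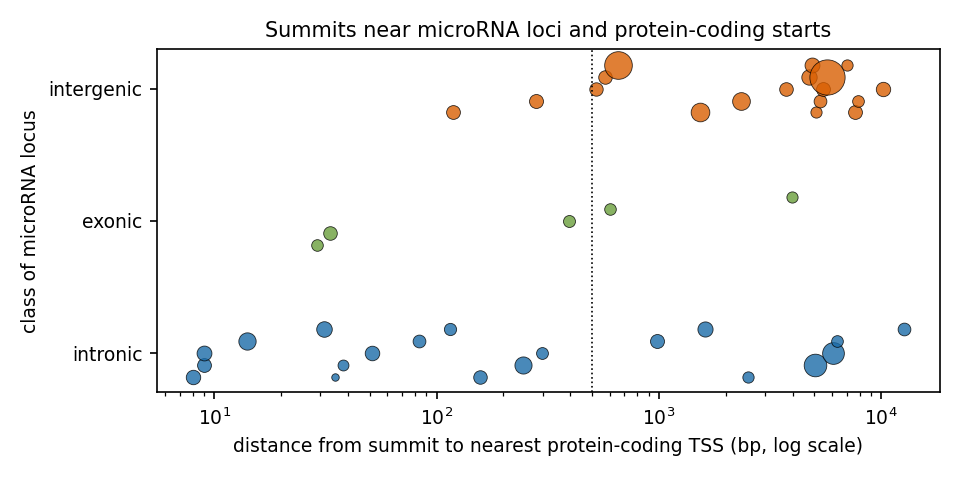
Distance from each of the 43 summits to the nearest protein-coding TSS (x axis, bp, log scale) by class of the microRNA locus (y axis), with point area by signal and a dotted line at 500 bp. Of the 25 summits near loci in introns and exons 16 lie left of the line, and of the 18 near intergenic loci 2 do.

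The share of loci with a summit has to be read against how much of the genome lies that close to a peak. Of all bases on the arms, 11.7% lay within 2000 bp of a summit, against 14.1% of microRNA loci. By class, 15 intronic loci had a summit (14.9%) beside 11.2% of intronic bases, 9 of 60 intergenic loci (15.0%) beside 7.48% of bases outside protein-coding genes, and 5 of 45 exonic loci (11.1%) beside 17.9% of exonic bases. No test was made of these differences. The window of a locus also includes its own length (median 97 bp, longest 2113 bp), so it is wider than that of a single base. Other annotated genes, measured from any part of the gene, had a summit within 2000 bp in 35.5% of cases. Of 130 loci of small nuclear and nucleolar RNAs, 65 did, and of 159 transfer RNA loci 32 did (20.1%).

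Distance to protein-coding starts, where most peaks lie, moved with this share. Among loci within 2000 bp of a protein-coding TSS, 19 of 91 had a summit (20.9%) against 25.7% of such bases. Among loci farther away, 10 of 115 did (8.70%) against 4.76% of such bases. The intronic loci were close to their bases in both parts, with 12 of 46 (26.1%) against 27.2% near a TSS and 3 of 55 (5.45%) against 5.88% far from one. Exonic loci near a TSS had fewer summits than their bases, with 4 of 27 (14.8%) against 27.2%. Intergenic loci near a TSS had 3 of 18 (16.7%) against 20.4%. Far from a TSS, 6 of 42 intergenic loci had a summit (14.3%) against 3.73% of bases, a difference in the other direction. Those 6 were mir-279/mir-996, mir-282, mir-14, mir-277/mir-34, mir-8 and bantam, each inside an annotated lncRNA.

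**Figure D4:**
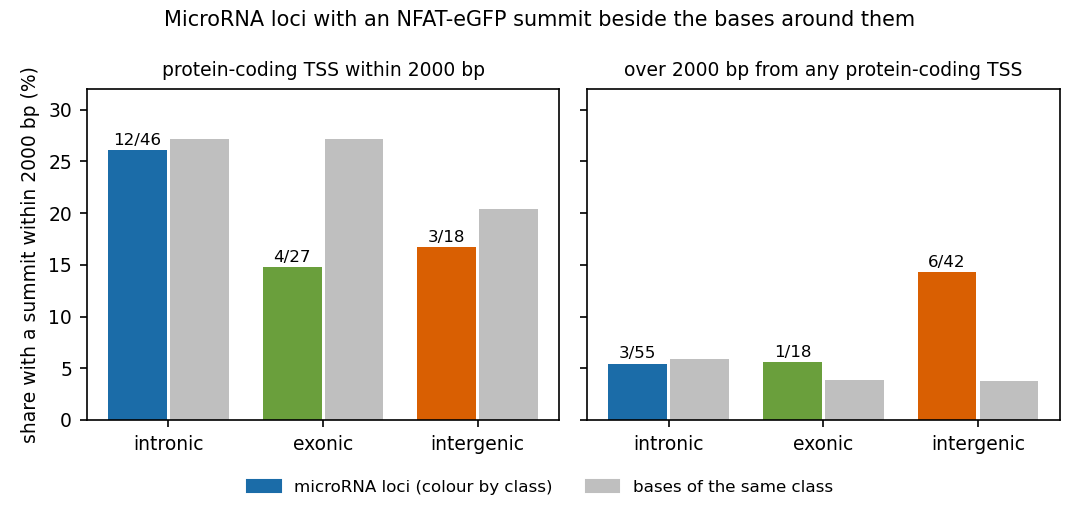
Share of microRNA loci with a summit within 2000 bp (coloured bars, with the number of loci above) beside the share of all bases of the same class that lie within 2000 bp of a summit (grey bars), for loci near and far from a protein-coding TSS. The y axis is a percentage from 0; far from a TSS the intergenic bars stand at 14.3% and 3.73%, and the intronic bars at 5.45% and 5.88%.

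The starts of the lncRNA hosts were compared directly. Of 38 lncRNA and antisense RNA genes that overlap a microRNA locus, 8 had a summit within 500 bp of a start (21.1%). Of all 2448 lncRNA and antisense RNA genes, 7.27% did. Besides the hosts of mir-279/mir-996, mir-282, mir-14, mir-8, mir-275/mir-305 and bantam, these were CR43314, which holds mir-bft (also called mir-263a), with 66.3 at 159 bp, and iab8 in the bithorax complex, with 56.6 at 68 bp. The hairpins of these last had no summit within 2000 bp: mir-bft lay 17432 bp from the nearest summit, and mir-iab-4/mir-iab-8 5404 bp. None of the 8 starts had a protein-coding TSS within 2000 bp of its summit, and the closest was 2338 bp away, at mir-282.

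Many of the best known microRNAs had no peak nearby. Of 44 loci on a list of well-studied hairpins, 9 had a summit (20.5%), against 20 of the other 162 (12.3%). Muscle mir-1 lay 69545 bp from the nearest summit, neuronal mir-124 52044 bp and the Hox cluster microRNA mir-10 49839 bp. The let-7 cluster with mir-100 and mir-125, which times late development, was 5164 bp from one. The mir-309 cluster, which clears maternal RNAs, was 8099 bp away, mir-7 12032 bp, mir-184 8924 bp, and mir-9a, which acts in sensory organs, 4312 bp. The mir-310 cluster was 27832 bp away. The other well-studied loci without a summit lay between 2188 bp (mir-375) and 212661 bp (mir-980) from the nearest one. Among them were mir-276a at 2517 bp, mir-iab-4/mir-iab-8 at 5404 bp and mir-bft at 17432 bp. The rest were mir-317, the mir-11 pair with mir-998, the clusters led by mir-2a-2, mir-13b-1 and mir-9c, mir-315, the mir-314 pair with mir-956, mir-989, mir-263b, mir-278, mir-190, mir-2b-1, mir-990, the mir-133 pair with mir-288, mir-137, the mir-999 pair with mir-4969, mir-276b, mir-958, mir-995, mir-219 and mir-927. No summit lay within 2000 bp of these loci in the thresholded list, and no expression was measured here. In the ranked list of both replicates together, 33 of the 44 loci had one, beside 80.0% of arm bases. Among the well-studied loci without a thresholded summit, the strongest there were 83.2 at mir-9a and 61.7 at mir-375. bantam, which was counted, had 62.1.

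Loci just beyond the distance limit numbered 8, at 2020 to 2381 bp: mir-2493, mir-1013, mir-1009, mir-4943, mir-375, mir-955, mir-4962 and mir-4982. The closest of them, mir-2493, had a summit of 72.2 at 2020 bp. mir-375 had one of 156 at 2188 bp. Just inside, mir-1004 was the only locus whose closest summit lay 1500 bp or more away, at 1610 bp. In the full ranked list 167 of the 206 loci (81.1%) had a summit within 2000 bp, but 80.0% of all arm bases did too, so presence in that list separates few loci. Some loci without a counted summit had strong ones there: 168 at mir-2283, 133 at mir-2493 and 111 at mir-4949.

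The peaks near microRNA loci were found in the replicates about as often as the whole list. Of the 43 peaks, 19 overlapped a thresholded peak of replicate 1 (44.2%, against 44.2% of all peaks). In replicate 2, whose list is longer (3994 against 2236 peaks on the arms), 30 did (69.8%, against 73.3%). Both replicates had 15 of the 43 (34.9%), against 39.8% of all peaks in the list, and 9 were in neither (20.9%, against 22.3%). All 43 overlapped a ranked peak of replicate 2, as did 99.7% of all peaks, and 40 overlapped one of replicate 1 (93.0%, against 94.7%). Taken alone, the list of replicate 1 gave 14 loci with a summit and that of replicate 2 gave 25. The smaller conservative list overlapped 31 of the 43 peaks (72.1%, against 74.7% of all peaks). These overlaps are not independent of the series list, which drew on both replicates.

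**Figure D5:**
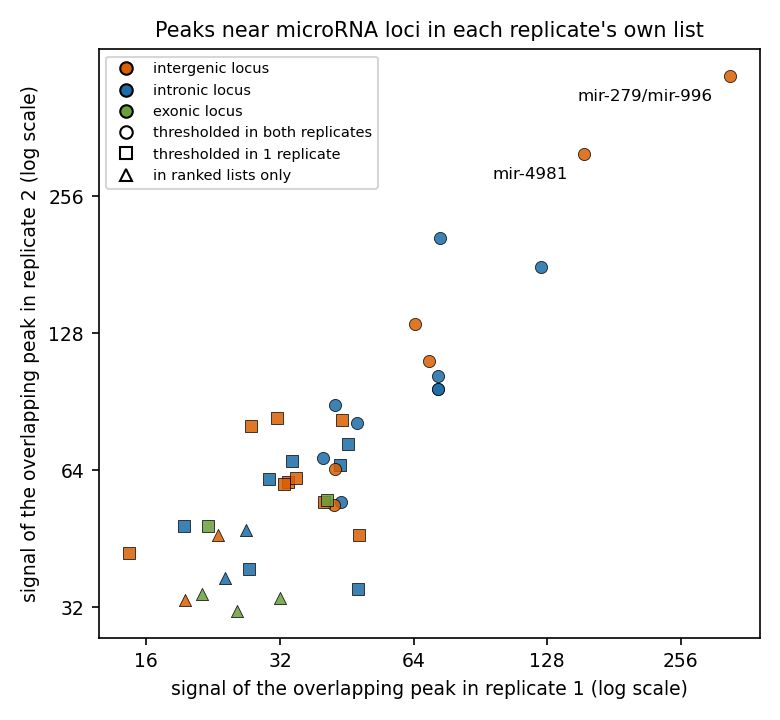
Signal of the overlapping ranked peak in replicate 1 (x axis, log scale) and replicate 2 (y axis, log scale) for the 40 peaks near microRNA loci found in both ranked lists; circles passed the threshold in both replicates, squares in 1 and triangles in neither, and colour gives the class. The peaks of mir-279/mir-996 (330 and 470) and mir-4981 (155 and 317) stand highest in replicate 1 and replicate 2, and the scales of the 2 lists are not known to be equal.

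Genes of the microRNA pathway were read in the same way, from a list of 35. For 16 of them (45.7%) a TSS had a summit within 2000 bp, against 31.7% of all protein-coding genes. Of 8 genes that process hairpins, 3 had one. The strongest, 787 at 1822 bp from the start of pasha, the partner of Drosha, lay 5 bp from the start of its neighbour Mnat9. Cbp20, a nuclear cap-binding protein, had 323 at 18 bp (131 in replicate 1, 193 in replicate 2). Ranbp21, the exportin of hairpin precursors, had 62.1 at 5 bp. None was found at drosha, at Dcr-1, which cuts the precursor, or at its partner loqs.

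Of the pathway's effectors, AGO1, the Argonaute that holds most fly microRNAs, had a summit of 106 at 143 bp that was closer to CG33155 (27 bp), and gw, the fly GW182 gene, had none. Of 6 genes for short interfering RNAs and end trimming, Tailor (180), r2d2 (158) and Nbr (85.6) had one, and the first 2 lay nearer to alphaTub84B (50 bp) and Herp (46 bp). Of 19 genes that degrade or store silenced messages, 9 had one. They included PAN3 (468, with 195 in replicate 1 and 277 in replicate 2) and pAbp (330, with 131 and 202), a deadenylase subunit and the poly(A)-binding protein. Not1, the scaffold of the CCR4-NOT deadenylase, had 168 at 38 bp, and the decapping enzyme DCP2 206 at 78 bp. The remaining ones were tral (220), Pop2 (173), twin (145), PAN2 (84.4) and Ge-1 (71.2), and those of tral, Pop2 and PAN2 lay nearer to the start of a neighbour. No summit was near me31B, AGO2, Dcr-2 or Hen1.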

How the data were processed

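Data were peak lists on dm6, per the labels, from 2 biological replicates of 1 group: a thresholded and a ranked list per replicate, and for both together a larger, a conservative and a ranked list. Thresholds used the irreproducible discovery rate, per the deposited file descriptions. The aligner and the peak caller: not given in the sources used here. Signal per peak was used as deposited by the authors, and the deposited summit offset gave each summit. The lists give no read totals, so depth is unknown. Of 4924 peaks in the larger list, 25 off the arms were left out.

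Genes came from Ensembl release 115 (BDGP6). That annotation had 0 genes with the biotype pre_miRNA, so members were chosen by name. Each locus took the class exonic, intronic or intergenic relative to protein-coding genes. Replicate peaks were matched by at least 1 bp, taking the strongest. Sequences came from the RefSeq Release 6 genome. Named loci are the 20 with the strongest summits and all well-studied ones. The other 7 with a summit, those just beyond the distance limit, mir-2283 and mir-4949 were named after their values were seen. Members and lists were chosen with earlier results of these data known. No test across conditions was possible with 1 group, so shares are descriptions. The counting step was tested on simulated data. Python 3.11.15, NumPy 2.4.6 and matplotlib 3.10.9 were used.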

Additional observations from a re-analysis of the deposited data

How the results depend on the processing

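The count of microRNA loci with a summit followed the distance allowed: 12 within 500 bp and 68 within 5000 bp, beside 29. It was 18 with the stronger 50% of peaks, 17 with summits over 500 bp from every protein-coding TSS, and 167 with all ranked peaks, an alternative chosen after seeing the data. For intronic loci these counts were 4, 34, 9, 6 and 85, beside 15. For intergenic loci they were 5, 17 and 46 within 500 bp, within 5000 bp and with ranked peaks, beside 9, which held at 9 without promoter summits. Each replicate's list alone gave 14 (replicate 1) to 25 loci (replicate 2), 6 to 12 intronic and 7 to 10 intergenic. So replicate 2 gave most loci, and without it the count fell by over 1.5 times. The cause was not tested. Within 1000 bp, with the conservative list, with any base of the peak and with other joining of hairpins, counts stayed within 1.5 times. The conservative list gave 25 loci, 22 of them among the 29. By class it gave 12 intronic and 11 intergenic loci, beside 15 and 9, so some intergenic loci entered only there. No bantam peak in the window overlapped a peak of that list. The median signal of 97.1 was 97.9 within 500 bp, 98.2 within 5000 bp, 97.9 without promoter summits and 100 in the conservative list. No paired analysis was possible because there is 1 group. Depth is unknown, so a locus without a summit is not shown to be unbound.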
